A study of Mus musculus with 18 samples.

Results

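Transcripts of 10 transcription regulators were followed in the striatum of 18 mice: the repressor Rest and its corepressor Rcor1, the activator Creb1 and its acetyltransferase coactivators Crebbp and Ep300, and the coactivators Ppargc1a and Ppargc1b with their nuclear partners Esrra and Nrf1 and the mitochondrial factor Tfam. They were chosen by gene symbol, and all 10 were found once each among the 55421 genes counted. Their counts were compared between 5 WT mice, 5 zQ175 mice, 3 CK2a'(+/-) mice and 5 zQ175:CK2a'(+/-) mice. All were labelled C57BL/6 and were 12 to 14 months old. Per the study's methods the zQ175 line was on C57BL/6J, and the CK2a' line came from a mixed 129/SvEv-C57BL/6J background. Per the same methods, the CK2a' line was crossed with WT and zQ175 mice for many generations before founders were selected. All mice used are described there as having the background of the zQ175 line. Each mouse gave a single library. The zQ175 mouse is heterozygous for a knock-in of an expanded CAG repeat in the Huntingtin gene, so the mutant protein is made wherever the gene is active. CK2a'(+/-) mice have lost an allele of Csnk2a2, which encodes the catalytic subunit CK2a' of casein kinase 2, and zQ175:CK2a'(+/-) mice carry both changes. The comparisons address how the disease allele, the loss of a kinase allele and their combination alter striatal expression.

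REST binds the RE1 element and silences neuronal genes through CoREST, the product of Rcor1, and wild-type huntingtin is known to hold REST in the cytoplasm of neurons. CREB binds the cAMP response element and recruits CBP and p300, the products of Crebbp and Ep300, which acetylate histones and which mutant huntingtin can bind. PGC-1 alpha, the product of Ppargc1a, works with ERR alpha and NRF1 to drive mitochondrial genes including Tfam, and Ppargc1a is itself a known CREB target.

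Total counts ranged from 13612381 to 22702547 per library, with a median of 18005044, and 20914 genes entered the tests, among them all 10 regulators. Csnk2a2 followed the labels, at 14.7 to 19.9 CPM (counts divided by the TMM-adjusted library size) in the mice with a lost allele and 29.4 to 37.5 CPM in the others. The groups were unequal in sex: Xist, the RNA made from the inactive X chromosome of females, was above 900 CPM in 4 of 5 WT, 2 of 5 zQ175, 1 of 3 CK2a'(+/-) and 4 of 5 zQ175:CK2a'(+/-) mice and at most 47.0 CPM in the remaining mice. Striatal projection neuron markers, a list of 10 genes, were all detected in every mouse. The summed level of 6 measured cortical neuron markers was 60.7 to 330 CPM in zQ175 mice and 23.3 to 55.5 CPM in WT mice, highest in zQ175 replicate 5. The summed level of 5 thalamic markers reached 890 CPM in zQ175 replicate 1, against at most 271 CPM in WT mice. The highest sums of choroid plexus markers were 2030 CPM in WT replicate 1, 948 CPM in CK2a'(+/-) replicate 1 and 3020 CPM in zQ175:CK2a'(+/-) replicate 2. In zQ175 mice the sum was at most 15.4 CPM, and the group medians were 5.97 to 13.9 CPM. The choroid plexus marker Ttr averaged 727 CPM in WT mice (SD 993, n = 5, highest 1970 CPM). WT replicate 1 was thus not the only WT library with a high level of it. In bulk tissue, fewer cells of a type and less RNA per cell cannot be told apart.

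Promoters of 4 regulators are given first, because their genes are linked to each other as factor and target. A RefSeq promoter on GRCm38, from 250 bases before to 50 bases after the start site, was matched for 8 of the 10 regulators. The sequences run 5′ to 3′ on the strand of the gene. Capitals mark the NRF1 core GCATGCGC in Esrra, the GABP element CCGGAAGT in Tfam and a short CRE core (TGACG, here on the opposite strand) in Ppargc1a.
Creb1, chr1:64532554-64532853, plus strand: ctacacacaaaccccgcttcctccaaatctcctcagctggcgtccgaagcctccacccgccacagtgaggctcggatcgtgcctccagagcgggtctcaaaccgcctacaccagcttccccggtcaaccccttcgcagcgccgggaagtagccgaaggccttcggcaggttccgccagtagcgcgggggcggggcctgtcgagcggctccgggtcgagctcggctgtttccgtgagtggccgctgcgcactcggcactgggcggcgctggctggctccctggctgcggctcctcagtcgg
Ppargc1a, chr5:51567676-51567975, minus strand: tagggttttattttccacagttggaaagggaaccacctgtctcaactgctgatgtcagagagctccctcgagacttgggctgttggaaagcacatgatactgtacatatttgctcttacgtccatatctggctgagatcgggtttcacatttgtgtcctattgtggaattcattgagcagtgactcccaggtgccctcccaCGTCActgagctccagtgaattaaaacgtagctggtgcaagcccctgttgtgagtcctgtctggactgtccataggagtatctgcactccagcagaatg
Esrra, chr19:6921759-6922058, minus strand: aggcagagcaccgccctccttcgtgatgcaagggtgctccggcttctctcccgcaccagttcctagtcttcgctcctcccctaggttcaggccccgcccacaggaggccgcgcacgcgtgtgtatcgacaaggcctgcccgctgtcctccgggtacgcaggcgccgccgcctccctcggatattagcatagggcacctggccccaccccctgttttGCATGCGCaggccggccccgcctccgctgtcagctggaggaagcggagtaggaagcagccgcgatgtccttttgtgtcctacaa
Tfam, chr10:71237995-71238294, minus strand: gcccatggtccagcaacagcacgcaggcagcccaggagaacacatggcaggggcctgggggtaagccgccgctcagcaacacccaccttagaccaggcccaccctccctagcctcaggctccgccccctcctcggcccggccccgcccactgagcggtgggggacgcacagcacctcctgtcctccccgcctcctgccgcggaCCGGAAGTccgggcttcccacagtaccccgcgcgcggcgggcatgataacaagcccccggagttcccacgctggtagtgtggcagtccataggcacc

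Searched on both strands of 32851 mouse promoters of this length, the NRF1 core occurred in 2.71% and the GABP element in 3.89%. The short CRE core occurred in 20.8%, and was also found 2 times in the Rcor1 promoter. The complete element TGACGTCA occurred in 1.79% of promoters and in none of those of the regulators. The right arm of the RE1 element, GGACAGC, which is not capitalised, started at base 141 of the Esrra promoter on the opposite strand and at base 260 of the Ep300 promoter, and occurred in 6.56% of promoters. These matches describe letters only, and none was tested for binding.

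The regulators differed widely in level. Per kilobase of exon, Crebbp was highest with a mean of 22.0 CPM over 18 mice (SD 1.83), followed by Ppargc1a at 12.3 (SD 1.68), Ep300 at 11.6 (SD 0.96) and Ppargc1b at 9.74 (SD 1.34). Tfam (4.95), Esrra (4.86), Creb1 (4.14) and Rcor1 (4.01) formed a middle group, Nrf1 stood at 2.09 and Rest was lowest at 1.47 CPM per kilobase (SD 0.31). Crebbp exceeded Ppargc1a in 18 of 18 mice, Ppargc1b exceeded Tfam in 18 of 18, and Rcor1 exceeded Nrf1 in 18 of 18. Ppargc1a exceeded Ep300 in 11 of 18 mice, Tfam exceeded Esrra in 9 of 18 and Creb1 exceeded Rcor1 in 9 of 18, so these neighbours did not differ beyond their spread.

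**Figure D1:**
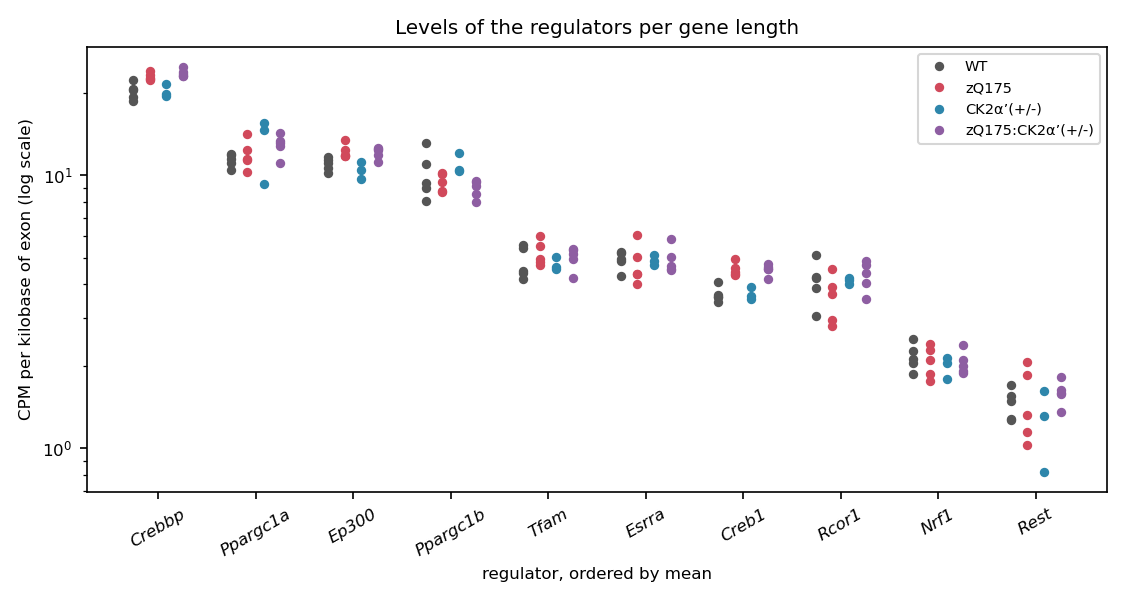
CPM per kilobase of exon (log scale) of the 10 regulators in each of 18 mice, ordered by mean and coloured by group. Crebbp lies above all others, at a mean of 22.0, and Rest lies lowest, at a mean of 1.47.

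Precision differed between the genes. Crebbp was counted 3837 to 6460 times per library and varied by 4.61% within groups (coefficient of variation), whereas Rest was counted 89 to 278 times and varied by 21.5%. Counting error alone would give 1.36% for Crebbp and 7.20% for Rest. For Creb1 the within-group variation was 5.62%, for Ep300 5.71%, and for the remaining 6 regulators it lay between 10.7% and 15.5%.

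Creb1 (ENSMUSG00000025958, GRCm38 chr1:64532645-64604548) was the regulator that rose in zQ175 mice. Its level was 50.2, 49.1, 49.2, 56.1 and 47.4 CPM in WT mice and 60.9, 68.1, 62.9, 59.2 and 59.7 CPM in zQ175 mice. It was 53.5, 48.6 and 49.7 CPM in CK2a'(+/-) mice and 62.4, 62.3, 57.3, 64.9 and 63.6 CPM in zQ175:CK2a'(+/-) mice. Every one of the 10 mice with the zQ175 allele, at 57.3 to 68.1 CPM, stood above every one of the 8 mice without it, at 47.4 to 56.1 CPM. Of all genes tested, 0.0861% were likewise higher without overlap between these 10 and 8 mice. Against WT, Creb1 was 1.23-fold higher in zQ175 mice (log2 fold change 0.30, SE 0.07, edgeR adjusted p = 0.0613). The call was lost without WT replicate 1 (adjusted p = 0.155), 3 (0.167) or 5 (0.104) and without zQ175 replicate 1 (0.104), 2 (0.121), 3 (0.117) or 5 (0.107), while the edgeR log2 fold change stayed between 0.26 and 0.34. Without WT replicate 3 or zQ175 replicate 5, 0 of all genes tested passed in this comparison. With no filter on low counts the edgeR adjusted p was 0.124, and with only the libraries of both groups it was 0.184.

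Crebbp (ENSMUSG00000022521, chr16:4081328-4213997) measured 255, 303, 261, 280 and 277 CPM in WT mice and 303, 305, 316, 309 and 326 CPM in zQ175 mice. It measured 293, 266 and 267 CPM in CK2a'(+/-) mice and 324, 313, 318, 314 and 338 CPM in zQ175:CK2a'(+/-) mice. The log2 fold change between zQ175 and WT was 0.18 (SE 0.06, edgeR adjusted p = 0.193), and the gene did not pass. The highest WT mouse, replicate 2, was level with the lowest zQ175 mouse. DESeq2 gave an adjusted p of 0.073 for the same comparison.

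Ep300 (ENSMUSG00000055024, chr15:81585351-81652077), the paralogue of Crebbp, measured 162, 167, 151, 159 and 145 CPM in WT mice and 169, 193, 170, 176 and 168 CPM in zQ175 mice. The groups did not overlap, as was true in this direction of 1.26% of all genes, but the log2 fold change of 0.16 (SE 0.07) did not pass (edgeR adjusted p = 0.288). In CK2a'(+/-) mice Ep300 stood at 160, 149 and 138 CPM, and in zQ175:CK2a'(+/-) mice at 180, 170, 177, 160 and 178 CPM.

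**Figure D2:**
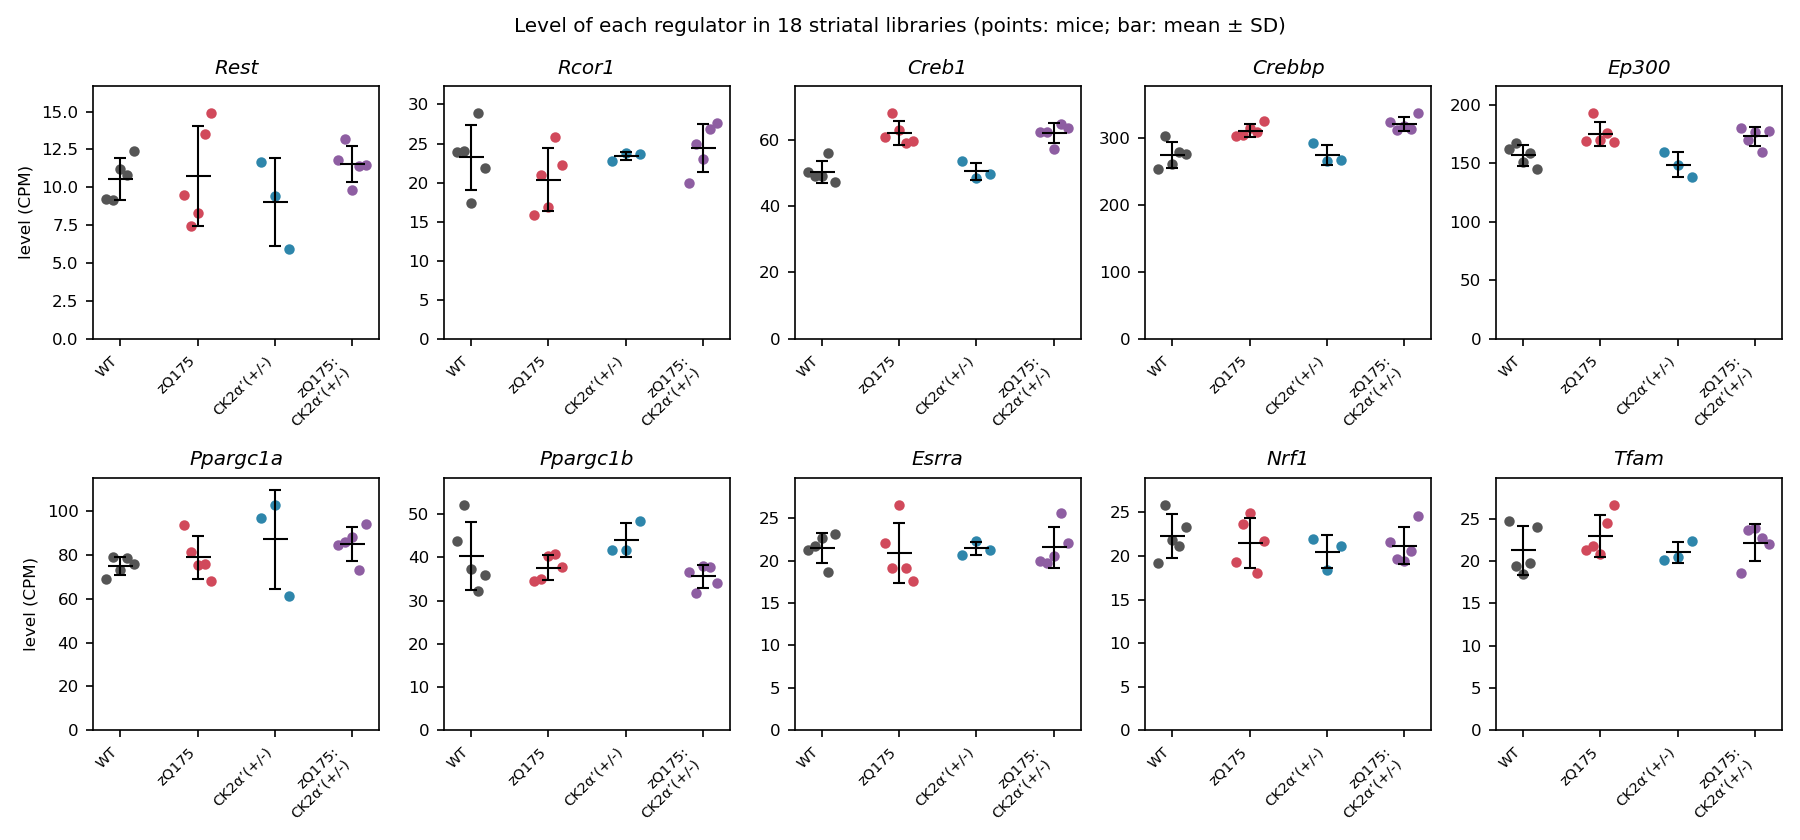
CPM of each regulator (vertical axes from 0) in WT, zQ175, CK2a'(+/-) and zQ175:CK2a'(+/-) mice, with points for mice and bars for the mean ± SD. Creb1 is at 57.3 to 68.1 CPM in the 10 mice with the zQ175 allele and at 47.4 to 56.1 CPM in the other 8.

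Among the 10 regulators, 1 passed between zQ175 and WT at an adjusted p under 0.1, compared with 1.10% of all genes, and 3 had an unadjusted edgeR p under 0.05, compared with 13.9% of all genes. The median log2 fold change of the regulators was 0.05, against 0.004 for all genes. In zQ175 mice the summed oligodendrocyte markers (3520 to 5300 CPM) lay below those of WT mice (5400 to 7460 CPM), and 4 of 6 passed as lower, among them Mbp. Of the 10 striatal neuron markers 3 passed as lower (Adora2a, Penk and Ppp1r1b), and 1 of the 6 measured cortical markers, Tbr1, passed as higher. In zQ175:CK2a'(+/-) mice the cortical markers summed to 24.4 to 54.3 CPM and the oligodendrocyte markers to 4020 to 5420 CPM. Striatal markers summed there to 2660 to 3770 CPM, against 2910 to 6870 CPM in WT mice. The cortical markers had a median log2 fold change of -0.27 between zQ175:CK2a'(+/-) and WT mice. Among them Neurod2 was at 7.11 to 13.0 CPM in zQ175:CK2a'(+/-) and 0.448 to 9.77 CPM in WT mice. The part of these cell type differences in the levels of the regulators was not tested.

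In zQ175:CK2a'(+/-) mice Creb1, Crebbp and Ep300 were also above WT in estimate, and none passed in edgeR. Creb1 was at a log2 fold change of 0.30 against WT (SE 0.07, edgeR adjusted p = 0.204), Crebbp at 0.22 (SE 0.06, 0.297) and Ep300 at 0.14 (SE 0.07, 0.538). Of the 10 regulators 0 passed in edgeR, compared with 0.0143% of all genes, and 3 had an unadjusted p under 0.05, compared with 9.13%. DESeq2 called Creb1 (adjusted p = 0.0275) and Crebbp (0.055), 2 of 10 regulators compared with 0.722% of all genes, and without WT replicate 4 edgeR called Creb1 (adjusted p = 0.0959), when the number of genes that passed in all rose from 3 to 33. Ppargc1a was at 0.18 (SE 0.11, adjusted p = 0.671) and Ppargc1b at -0.17 (SE 0.11, 0.671).

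Within CK2a'(+/-) mice, the zQ175 allele went with log2 fold changes of 0.30 for Creb1 (SE 0.08, edgeR adjusted p = 0.145), 0.22 for Crebbp (0.262) and 0.21 for Ep300 (0.349). Here 0 regulators passed in edgeR, compared with 0.593% of all genes, and 4 had an unadjusted p under 0.05, compared with 9.19%. The remaining one of these 4 was Ppargc1b, at -0.30 (SE 0.13, adjusted p = 0.443), with every zQ175:CK2a'(+/-) mouse (31.8 to 38 CPM) below every CK2a'(+/-) mouse (41.6 to 48.5 CPM). Of all genes tested, 4.48% were likewise lower without overlap between these groups. DESeq2 called Creb1 (adjusted p = 0.0543) and Crebbp (0.0971), 2 of 10 regulators compared with 1.63% of all genes. In this comparison 2 of 10 striatal neuron markers passed in edgeR as lower, Adora2a (-1.21, adjusted p = 0.0733) and Penk (-1.04, 0.0989), 7 of 10 had an unadjusted p under 0.05 and their median was -0.74. Of 6 oligodendrocyte markers 1 passed as lower, Mobp (-0.59, adjusted p = 0.0989). Their part in the levels of the regulators was not tested.

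**Figure D3:**
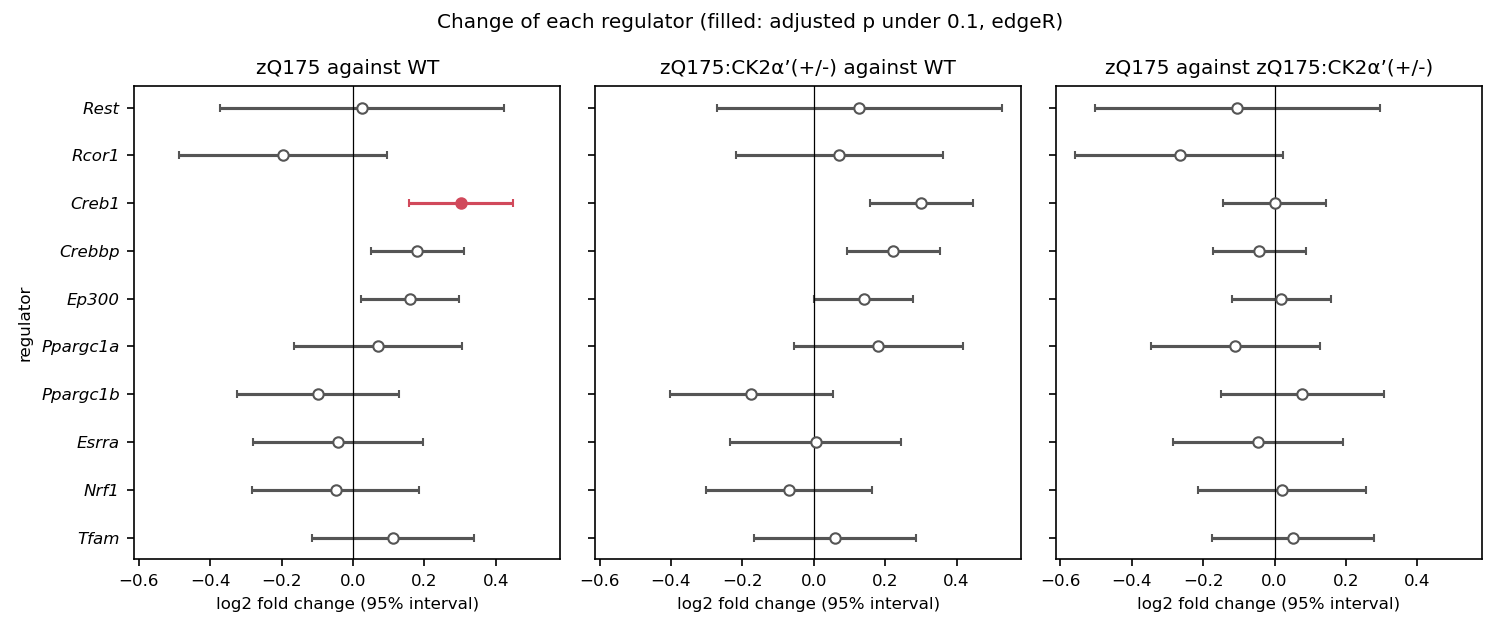
Log2 fold changes with 95% intervals of the 10 regulators in 3 comparisons, with filled points for an edgeR adjusted p under 0.1. The point for Creb1 between zQ175 and WT, at 0.30, is the filled one, and its interval runs from 0.16 to 0.45.

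The effect of the zQ175 allele was also averaged over both CK2a' genotypes in the same fit, a comparison added after the values had been seen. Creb1 rose by a log2 fold change of 0.30 (SE 0.05, 95% interval 0.19 to 0.41, edgeR adjusted p = 0.00568). Crebbp rose by 0.20 (SE 0.05, adjusted p = 0.0294) and Ep300 by 0.19 (SE 0.05, adjusted p = 0.0555). Of the 10 regulators 3 passed, all as higher, compared with 4.90% of all genes, and 4 had an unadjusted p under 0.05, compared with 16.2%. In the same comparison 7 of 10 striatal neuron markers and 3 of 6 oligodendrocyte markers passed as lower, 1 of 6 astrocyte markers passed as lower (Aldh1l1, -0.27) and 1 of 6 measured cortical markers passed as higher (Neurod2, 2.44). Their part in the levels of the regulators was not tested. Creb1 kept its call without any single mouse, with edgeR adjusted p between 0.00223 and 0.027. Crebbp lost it without CK2a'(+/-) replicate 3 (0.107). Ep300 lost it without WT replicate 1 (0.109) or 3 (0.102), zQ175 replicate 2 (0.124), or CK2a'(+/-) replicate 2 (0.112) or 3 (0.199). With no filter on low counts Crebbp (0.104) and Ep300 (0.166) did not pass. Ppargc1b was at -0.20 (SE 0.08, adjusted p = 0.228).

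**Figure D4:**
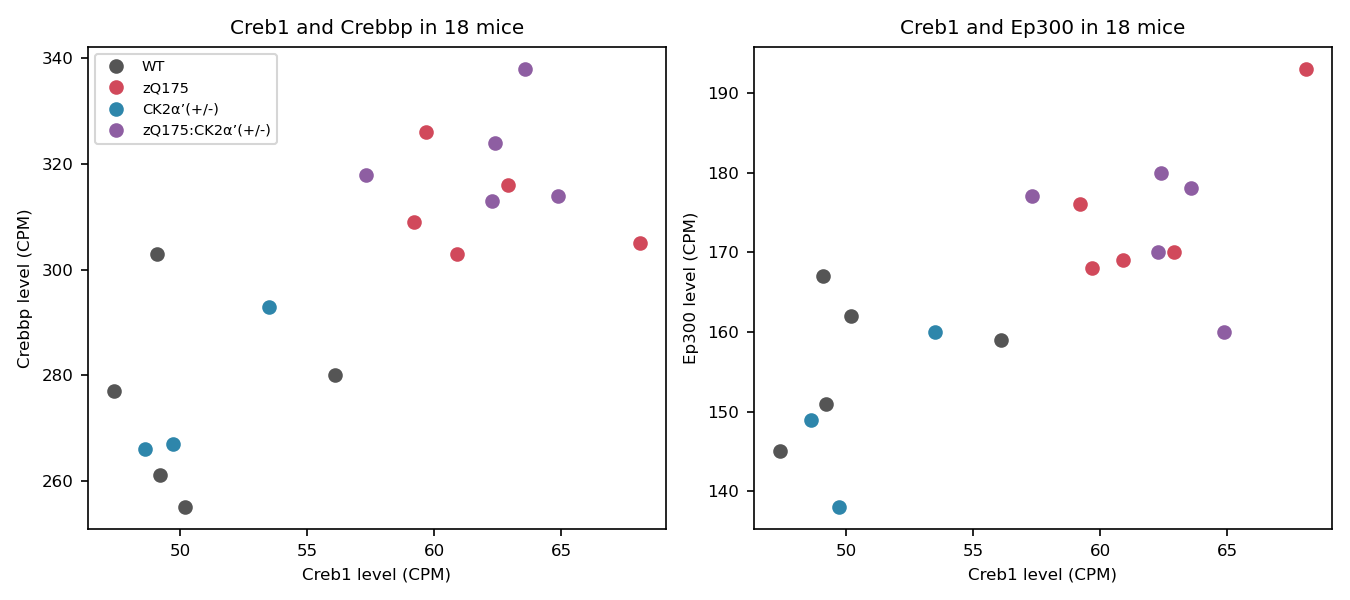
Creb1 level (horizontal axis, CPM) against Crebbp and Ep300 levels (vertical axes, CPM) in 18 mice coloured by group. Mice with the zQ175 allele lie to the right, at 57.3 to 68.1 CPM of Creb1. For Crebbp 9 of these 10 lie above every mouse without the allele, all but zQ175 replicate 1. For Ep300 9 of the 10 also do, all but zQ175:CK2a'(+/-) replicate 4.

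Creb1, Crebbp and Ep300 were correlated over all mice and less so within groups. Across 18 mice, which share the group differences, Pearson's r of log2 CPM was 0.79 between Creb1 and Crebbp, 0.78 between Creb1 and Ep300 and 0.73 between Crebbp and Ep300. For deviations from the group means r was 0.11, 0.38 and 0.30.

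Loss of a CK2a' allele was not accompanied by a detectable difference in any regulator. Between zQ175 and zQ175:CK2a'(+/-) mice Creb1 differed by 0.001 on the log2 scale, with a 95% interval from -0.14 to 0.15, and Crebbp by -0.04 (-0.17 to 0.09). Rcor1 showed the largest difference of the 10, at -0.27 (SE 0.14, edgeR adjusted p = 0.83), with 15.9 to 25.8 CPM in zQ175 and 19.9 to 27.6 CPM in zQ175:CK2a'(+/-) mice, which overlapped. In this comparison 0 regulators passed in edgeR, compared with 0.0143% of all genes, and 0 had an unadjusted p under 0.05, compared with 6.27%. DESeq2 also called 0, compared with 0.146% of all genes. Between CK2a'(+/-) and WT mice 0 passed in edgeR or DESeq2, compared with 0.0143% of all genes in edgeR and 0.0293% in DESeq2, and 0 had an unadjusted p under 0.05, compared with 4.48%. The interaction of both alleles passed for 0 regulators in edgeR, compared with 0.00478% of all genes, and 0 had an unadjusted p under 0.05, compared with 5.39%. The lowest edgeR adjusted p of the interaction was 0.952. The widest 95% interval, that of Rest, reached 0.94 on the log2 scale, and that of Creb1 ran from -0.23 to 0.21. Interactions inside these intervals remain compatible with the values.

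Rest (ENSMUSG00000029249, chr5:77265491-77286432), the repressor, was at 9.22, 9.16, 11.2, 10.8 and 12.4 CPM in WT mice and at 9.51, 7.47, 8.30, 13.5 and 14.9 CPM in zQ175 mice. The zQ175 mice thus spanned a range on both sides of WT, and the log2 fold change of 0.02 had a 95% interval from -0.37 to 0.42. In CK2a'(+/-) mice Rest measured 11.7, 9.45 and 5.94 CPM, and in zQ175:CK2a'(+/-) mice 11.8, 13.2, 9.80, 11.4 and 11.5 CPM. The value of 5.94 CPM, in CK2a'(+/-) replicate 3, was the lowest of all 18 mice.

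Rcor1, the scaffold of the REST corepressor, was at 23.9, 24.1, 17.4, 28.9 and 21.9 CPM in WT mice and at 15.9, 21, 16.9, 25.8 and 22.2 CPM in zQ175 mice. The log2 fold change was -0.20 (SE 0.14, edgeR adjusted p = 0.577), within the spread of the mice. An overlapping gene on the same strand, Gm48632, shares 53 exon bases with Rcor1 and was counted 15 to 80 times per library.

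Of 14 further genes of the REST corepressor complex, 0 passed between zQ175 and WT in edgeR, compared with 1.10% of all genes. In this list 2 had an unadjusted edgeR p under 0.05, compared with 13.9% of all genes. The median log2 fold change was 0.08 against 0.004 for all genes. DESeq2 called 1, compared with 5.15% of all genes. Rcor3, a CoREST paralogue, was at 18.9 CPM (SD 2.97, n = 5) in zQ175 and 14.0 CPM (SD 1.87, n = 5) in WT mice, a log2 difference of 0.43 (edgeR adjusted p = 0.116). Of 15 neuronal genes with an RE1 element 1 passed in edgeR, compared with 1.10% of all genes. It was Bdnf, a neurotrophin, at 2.09 to 14.5 CPM in zQ175 and 0.324 to 1.74 CPM in WT mice (log2 fold change 2.72, SE 0.65, adjusted p = 0.0726). The median of the list was 0.07. Without zQ175 replicate 5, where 0 of all genes passed, Bdnf was at 2.22 (SE 0.65, adjusted p = 0.168). In the same comparison 6 of 6 measured cortical neuron markers had an unadjusted p under 0.05 (median change 1.62 on the log2 scale), and their part in the level of Bdnf was not tested. With both CK2a' genotypes averaged 2 of the 15 passed in edgeR, compared with 4.90% of all genes. The synaptic vesicle gene Syn1 was higher (0.23, adjusted p = 0.0824) and passed in 5 of 18 fits that each left out a mouse, with adjusted p up to 0.285. The muscarinic receptor gene Chrm4 was lower (-0.83, 0.0149) and passed in 18 of 18. In that comparison 7 of 10 striatal projection neuron markers also passed as lower, with a median of -0.71, and their part in the level of Chrm4 was not tested. Between zQ175 and WT, DESeq2 called 3 of the RE1 genes, compared with 5.15% of all genes.

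Of 18 CREB target genes, 2 passed as higher and 1 as lower between zQ175 and WT, compared with 1.10% of all genes in either direction, and the median log2 fold change was -0.25 against 0.004 for all genes. Bdnf, given above, and the orphan nuclear receptor Nr4a2 (12.7 CPM in zQ175, 5.21 CPM in WT, log2 fold change 1.28, SE 0.34, edgeR adjusted p = 0.099) were higher. Penk, the precursor of the enkephalins and also a striatal marker, was lower, at 391 CPM against 783 CPM (log2 fold change -1.0, SE 0.23, adjusted p = 0.061). Between zQ175 and zQ175:CK2a'(+/-) mice Nr4a2 was higher in zQ175 (log2 fold change 2.23, SE 0.36, adjusted p = 0.0338), where 0.0143% of all genes passed. Of the 6 measured cortical markers 5 had an unadjusted p under 0.05 there, with a median of 1.84, and 6 of 6 did between zQ175 and WT. Their part in the levels of Bdnf and Nr4a2 was not tested. Between zQ175:CK2a'(+/-) and CK2a'(+/-) mice Penk (-1.04, adjusted p = 0.0989) and the clock gene Per1 (-0.54, adjusted p = 0.0717) were lower, where 0.593% of all genes passed. Penk passed in 7 and Per1 in 10 of 18 fits that each left out a mouse. Without zQ175 replicate 5, where 0 of all genes passed between zQ175 and WT and 1 between zQ175 and zQ175:CK2a'(+/-), Nr4a2 was at 1.24 (edgeR adjusted p = 0.169) and 2.18 (0.113) in these comparisons. Penk was then at -0.98 against WT (0.122). With both CK2a' genotypes averaged 0 targets passed as higher and 5 as lower, compared with 4.90% of all genes in either direction: Penk (-1.02, adjusted p = 0.00318), Per1 (-0.43, 0.00633), the dynorphin precursor Pdyn (-0.75, 0.0272), the peptide hormone Crh (-2.44, 0.0326) and the phosphatase Dusp1 (-0.45, 0.0849). Crh was low, at 0.113 to 0.502 CPM in zQ175:CK2a'(+/-), 0.219 to 1.36 CPM in CK2a'(+/-) and 0.355 to 7.33 CPM in WT mice. Without each mouse in turn Penk, Per1 and Crh passed in 18 of 18 fits, Pdyn in 17 and Dusp1 in 5. Beside these, 7 of 10 striatal neuron markers, Penk among them, passed as lower (median -0.71), as did 3 of 6 oligodendrocyte markers (median -0.30). Their part in the levels of the targets was not tested.

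Of 12 genes listed for the CREB family, its coactivators and its signalling, 1 passed between zQ175 and WT, compared with 1.10% of all genes. It was Ppp1r1b, which encodes the dopamine-regulated phosphatase inhibitor DARPP-32. That gene is neither a CREB family member nor a coactivator, and its call is shared with the striatal neuron markers. It was at 520 CPM in zQ175 and 940 CPM in WT mice (log2 fold change -0.85, SE 0.21, edgeR adjusted p = 0.0765), and at -0.86 (adjusted p = 0.128) without zQ175 replicate 5, where 0 of all genes passed. The median of the list was -0.04. With both CK2a' genotypes averaged 2 of the 12 passed as lower, compared with 4.90% of all genes in either direction: Ppp1r1b (-0.77, edgeR adjusted p = 0.0128) and the kinase gene Camk4 (-0.42, 0.0503). Without each mouse in turn they passed in 18 and 17 of 18 fits. Of the 10 striatal neuron markers, which include Ppp1r1b, 7 passed as lower there (median -0.71), and their part in the level of Camk4 was not tested. Between zQ175 and WT, DESeq2 called 2 of the 12, compared with 5.15% of all genes.

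**Figure D5:**
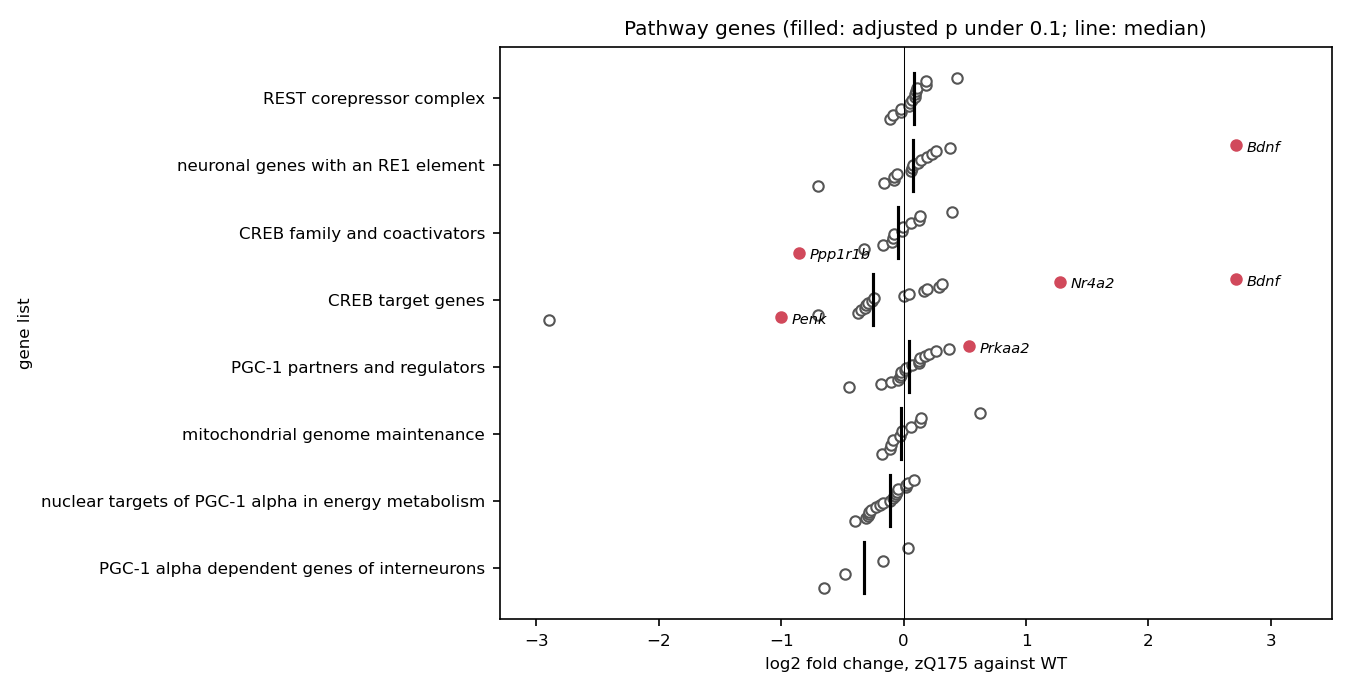
Log2 fold change between zQ175 and WT mice (horizontal axis) of each gene in 8 pathway lists (rows), with filled points for an edgeR adjusted p under 0.1 and a line at the median of the list. Filled points are Bdnf (in both lists that hold it), Nr4a2 and Prkaa2 to the right and Ppp1r1b and Penk to the left.

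Ppargc1a (ENSMUSG00000029167, chr5:51454250-51567726) was at 69.0, 79.0, 73.3, 78.4 and 76.0 CPM in WT mice and at 93.8, 81.5, 75.2, 76.0 and 67.9 CPM in zQ175 mice. The groups overlapped and the log2 fold change was 0.07 (SE 0.11, edgeR adjusted p = 0.835), with a 95% interval from -0.17 to 0.31. In zQ175:CK2a'(+/-) mice it was at 84.5, 86.1, 88.2, 73.0 and 94.2 CPM. The 3 CK2a'(+/-) mice were at 97.1, 103 and 61.1 CPM, which hold both the highest and the lowest value of all 18 mice. The lowest was in replicate 3, the mouse in which Rest was also lowest.

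Ppargc1b, which encodes the related coactivator PGC-1 beta, was at 43.8, 52.2, 37.4, 32.1 and 35.9 CPM in WT mice and at 34.5, 34.9, 40.3, 40.7 and 37.7 CPM in zQ175 mice (log2 fold change -0.10, SE 0.11, edgeR adjusted p = 0.744). Its gene lies on chromosome 18 and hosts Mir378a, counted at most 8 times per library. The ratio of Ppargc1a to Ppargc1b per kilobase, added after the values had been seen, had a mean of 1.16 (SD 0.23, n = 5) in WT, 1.28 (SD 0.24, n = 5) in zQ175, 1.22 (SD 0.40, n = 3) in CK2a'(+/-) and 1.46 (SD 0.20, n = 5) in zQ175:CK2a'(+/-) mice. In 5 exact two-sided permutation tests the lowest p was 0.0794, between zQ175:CK2a'(+/-) and WT (Benjamini-Hochberg adjusted p = 0.397).

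Esrra, the nuclear receptor ERR alpha, ranged from 18.7 to 23.1 CPM in WT and from 17.6 to 26.6 CPM in zQ175 mice, a log2 difference of -0.04 (SE 0.12). It shares 73 exon bases with Trmt112 on the opposite strand, which was counted 48 to 116 times per library, and the strand setting of the counting was not given in the sources used here. Nrf1, a factor for nuclear genes of the respiratory chain, ranged from 19.2 to 25.9 CPM in WT and from 18.1 to 24.9 CPM in zQ175 mice, a log2 difference of -0.05 (SE 0.11). Tfam, which packages and transcribes mitochondrial DNA, ranged from 18.5 to 24.7 CPM in WT and from 20.8 to 26.7 CPM in zQ175 mice, a log2 difference of 0.11 (SE 0.11). Adjusted p values in edgeR were 0.907, 0.89 and 0.70 for these 3 genes, and their values in the other groups overlapped those of WT.

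Of 18 partners and regulators of the PGC-1 coactivators 1 passed between zQ175 and WT, compared with 1.10% of all genes. It was Prkaa2, a catalytic subunit of the energy sensor AMPK, at 39.9 CPM (SD 5.42, n = 5) in zQ175 and 27.6 CPM (SD 2.09, n = 5) in WT mice, a log2 fold change of 0.53 (SE 0.11, edgeR adjusted p = 0.0469), and 0.54 (adjusted p = 0.107) without zQ175 replicate 5, where 0 of all genes passed. With both CK2a' genotypes averaged it was the 1 gene of the list that passed (0.29, edgeR adjusted p = 0.06), compared with 4.90% of all genes, and it passed in 14 of 18 fits that each left out a mouse. Its interaction with the CK2a' allele was -0.48 (SE 0.16, adjusted p = 0.832). Of 10 genes that maintain the mitochondrial genome 0 passed between zQ175 and WT in edgeR, compared with 1.10% of all genes. In this list 0 had an unadjusted edgeR p under 0.05, compared with 13.9% of all genes, and the median was -0.02.

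Of 20 nuclear targets of PGC-1 alpha in energy metabolism, 19 were tested and 0 passed between zQ175 and WT in edgeR, compared with 1.10% of all genes. In this list 6 had an unadjusted edgeR p under 0.05, compared with 13.9% of all genes. The median log2 fold change was -0.11. The cytochrome oxidase subunits Cox5b (-0.28, SE 0.10, edgeR adjusted p = 0.193) and Cox4i1 (-0.40, SE 0.15, 0.208) were among those with the smallest p values. Of 4 genes known to depend on PGC-1 alpha in interneurons 0 passed in edgeR and 2 had an unadjusted p under 0.05, compared with 1.10% and 13.9% of all genes. They were Syt2 (-0.48, SE 0.19, adjusted p = 0.252) and Pvalb (-0.65, SE 0.31, adjusted p = 0.348). Among 4 measured markers of parvalbumin interneurons 0 passed. Besides Pvalb these were the potassium channel genes Kcnc1 (-0.003, SE 0.19) and Kcnc2 (0.61, SE 0.38) and the peptide gene Pthlh (-0.45, SE 0.37). With both CK2a' genotypes averaged Syt2 passed as lower (-0.47, edgeR adjusted p = 0.0831), compared with 4.90% of all genes in either direction. It passed in 6 of 18 fits that each left out a mouse. In that comparison 7 of 10 striatal neuron markers (median -0.71) and 3 of 6 oligodendrocyte markers (median -0.30) also passed as lower. Their part in the level of Syt2 was not tested.

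Genes most like each regulator were ranked by Pearson's r of log2 CPM over the 18 mice, a description with no test. Creb1 was closest to the noncoding RNA Kcnq1ot1 (0.89), Zbtb44 (0.86) and Dok6 (0.85), and for deviations from the group means these fell to 0.51, 0.49 and 0.51. Crebbp was closest to Bptf (0.90), Avl9 (0.88) and Aff4 (0.88), and Ep300 to Tmem87b (0.84), Rab3gap2 (0.84) and Atad2b (0.83). Ppargc1a was closest to Tmem65 (0.86), Wwp1 (0.86) and Iqsec1 (0.84), with 0.88, 0.86 and 0.86 for deviations from the group means, and Ppargc1b to Gm37233 (0.92), Mprip (0.90) and Cx3cl1 (0.89). For Rest, Rcor1, Esrra, Nrf1 and Tfam the closest genes were Tcp11l2 (0.82), Sar1b (0.83), Zfp503 (0.76), B230208B08Rik (0.80) and 2610301B20Rik (0.78). Without zQ175 replicate 5, 0 of the 3 closest genes of Tfam and 1 of 3 for Rest and Esrra stayed among the closest 3, and 2 or 3 of 3 did for the other regulators. Ranked on deviations from the group means, 2 of 3 stayed for Esrra, 1 of 3 for Rcor1, Nrf1 and Tfam and 0 of 3 for the others.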

How the data were processed

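Striatal RNA of 18 mice was sequenced. Per the labels and the study's methods, the authors trimmed reads with Trimmomatic and aligned them to GRCm38 with HISAT2 2.1.0. Alignments were then filtered on mapping quality and cleared of duplicates and of reads without a match. The authors deposited raw counts per gene from Subread 1.6.2. The deposited gene lengths, in bases, are other values. The library kit was stranded, and the strand setting of the counting was not given in the sources used here. Symbols were assigned to 99.52% of identifiers from GENCODE M21, whose coordinates matched for all 10 regulators. Sex, which the study gives per group only, and sequencing batch were not given per library.

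Counts were tested with edgeR 4.0.16 in R 4.3.3 by the quasi-likelihood test, after TMM normalization and filterByExpr (20914 genes), with the 18 libraries fitted together and genotype as sole factor. Passing meant an adjusted p (Benjamini-Hochberg over all genes tested) under 0.1. Levels are TMM-scaled CPM, log2 CPM used a prior count of 2, and intervals are at 95%. The study reports that allocation was random among littermates within each sex. Which libraries share a litter or cage was not given. The steps were tested on simulated data. The regulators in every comparison were named, as were up to 4 passing genes per list, or else up to 3 with the smallest p, the 3 genes most like each regulator, overlapping genes, Csnk2a2 and marker sums. Some genes under this rule are not reported here. The regulators and gene lists were chosen with earlier results of these data known. Htt and Xist were checked and Xist served as a covariate. DESeq2 1.42.0, its size factors in edgeR, other filters, a block for the replicate number, a fit restricted to the groups compared, Xist as covariate, a robust fit, a threshold of 0.05 and leaving out each mouse were the alternatives. The averaged zQ175 effect, the ratio of Ppargc1a to Ppargc1b and the reruns of passing pathway genes without single mice were added after the values had been seen.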

Additional observations from a re-analysis of the deposited data

How the results depend on the processing

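Creb1 between zQ175 and WT kept its direction under every alternative run, and its call depended on the setting. The number of regulators that passed in that comparison was 1, and became 0 at a threshold of 0.05, 0 with no filter on low counts, 0 with the replicate number as a block, 0 with only the groups compared and 2 in DESeq2, which added Crebbp. DESeq2 gave 2 regulators for zQ175:CK2a'(+/-) against WT, among 124 genes in all, and 2 for zQ175:CK2a'(+/-) against CK2a'(+/-), among 327. For the averaged zQ175 effect the number was 1 with no filter on low counts. In DESeq2, 5.15% of all genes passed between zQ175 and WT. The lists there gave 1 of 14 genes of the REST corepressor complex, 3 of 15 with an RE1 element and 2 of 12 of the CREB family. Between zQ175:CK2a'(+/-) and WT they gave 1 CREB target in DESeq2, compared with 0.722% of all genes. Without single mice, the number of regulators that passed lay between 0 and 1 for zQ175 against WT and for zQ175:CK2a'(+/-) against WT, and between 1 and 3 for the averaged effect. Without zQ175 replicate 5 the RE1 genes, the CREB family, the PGC-1 partners and the CREB targets gave 0 between zQ175 and WT, where 0 of all genes passed, and the CREB targets gave 0 between zQ175 and zQ175:CK2a'(+/-), where 1 of all genes passed. Over all genes, 230 passed in edgeR between zQ175 and WT, against 847 in DESeq2, 451 with no filter on low counts, 98 with the block and 0 with only the groups compared. Without single mice the number ran from 0 (without WT replicate 3 or zQ175 replicate 5) to 587 (without WT replicate 2). The cause was not tested.

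Mice with the same replicate number did not deviate together: the mean correlation of their deviations from the group means was -0.013 over 24 pairs (-0.136 to 0.12). With the replicate number as a block, Creb1 between zQ175 and WT was at 0.30 (edgeR adjusted p = 0.114). Under the block the signs of Rest between zQ175 and WT (-0.0074), Tfam between CK2a'(+/-) and WT (0.027) and, between zQ175:CK2a'(+/-) and CK2a'(+/-), Rcor1 (-0.065) and Ppargc1a (0.015) changed. With the Xist covariate the signs of Rest between zQ175 and WT (-0.0049), Ppargc1a between zQ175:CK2a'(+/-) and CK2a'(+/-) (0.049), the interactions of Ppargc1a (0.012) and Tfam (0.0068) and the averaged effect on Nrf1 (-0.0031) changed. With no filter on low counts Nrf1 (averaged effect, -0.0024) and Creb1 (zQ175 against zQ175:CK2a'(+/-), -0.0041) changed sign, and with at least 10 counts in 10% of libraries Creb1 did in that comparison (-9.1e-05).

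Of 70 log2 fold changes, 29 changed sign without some mouse, and 0 of these had passed in edgeR. Over the mice left out, their values had these ranges. For zQ175 against WT, Rest ran from -0.13 to 0.12, Ppargc1a from -0.00047 to 0.12, Ppargc1b from -0.17 to 0.00019, Esrra from -0.15 to 0.011 and Nrf1 from -0.12 to 0.0027. For zQ175:CK2a'(+/-) against WT, Rcor1 ran from -0.011 to 0.16 and Esrra from -0.066 to 0.034. For CK2a'(+/-) against WT, Rest ran from -0.45 to 0.00011, Rcor1 from -0.076 to 0.098, Creb1 from -0.036 to 0.047, Crebbp from -0.046 to 0.041, Esrra from -0.051 to 0.022 and Tfam from -0.066 to 0.039. For zQ175 against zQ175:CK2a'(+/-), Rest ran from -0.26 to 0.0033, Creb1 from -0.033 to 0.017, Ep300 from -0.017 to 0.033, Esrra from -0.14 to 0.024, Nrf1 from -0.035 to 0.078 and Tfam from -0.0095 to 0.087. For zQ175:CK2a'(+/-) against CK2a'(+/-), Ppargc1a ran from -0.23 to 0.10, Esrra from -0.061 to 0.04 and Nrf1 from -0.022 to 0.11. For the interaction, Creb1 ran from -0.048 to 0.036, Ppargc1a from -0.30 to 0.034, Esrra from -0.019 to 0.15 and Tfam from -0.092 to 0.03. For the averaged zQ175 effect, Ppargc1a ran from -0.08 to 0.087, Esrra from -0.081 to 0.011 and Nrf1 from -0.042 to 0.029. Rest had the fewest counts, at 89 to 278 per library.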
